A study of Brassica rapa with 38 samples.

Results

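A set of 84 gene models was expressed in monoploid leaves of *Brassica rapa* and close to silent in diploid and autotetraploid leaves of the same genome. The members were chosen by their RNA levels. Each had at least 2 TPM (the length-corrected share of a library's transcripts that come from a gene, scaled to the same total in each library) in each of the 3 monoploid libraries and less than 0.5 TPM in each of the 2 diploid and 3 autotetraploid libraries. A block of 126 gene models on chromosome A06 was left out by the rule and held 0 further models that met both limits. The 84 members came from 46479 gene models on 10 chromosomes and made up 0.403% of the 20843 models that reached 2 TPM in each monoploid library. As these levels chose the members, the gap between the monoploid and the other libraries is described here and not tested.

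All plants carried the genotype 85_1 and received no treatment other than the ploidy change. Isolated microspores of the inbred line gave the monoploid, colchicine turned the monoploid into the diploid, and a further round of colchicine gave the autotetraploid. The 3 levels thus share 1 genome and 1 line of descent. Plants of the 3 levels were multiplied in tissue culture, moved to a greenhouse and sampled 60 days after sowing, at heading, when the inner young leaves were taken. The series calls the libraries of a ploidy level biological replicates, and the ATAC-seq and ChIP-seq samples were not analysed here.

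A monoploid plant holds 1 copy of each chromosome of the species' basic set, the diploid has each chromosome as an identical pair, and the autotetraploid has more identical copies still. In an inbred background these lines are expected to carry the same gene sequences and to differ in dosage. Whether they carry the same sequences at the loci described here was not tested. Ploidy goes along with colchicine treatment and line of descent in this design, and these cannot be told apart. *Brassica* genomes are also ancient hexaploids with many tandem and dispersed gene copies, and near-identical copies share short reads. In bulk leaves, fewer cells that use a gene and less RNA per cell cannot be told apart.

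The libraries held between 5.86 and 8.06 Gb of aligned bases. At this depth, 0.5 TPM equalled a mean coverage of 2.47 to 3.66 reads per base, so the upper limit of the rule lay at a few reads over each base. The deposited values do not include read counts, and precision therefore rests on the replicates. The files' gene IDs matched 0 entries of the RefSeq gene table, so no function is given to any member and the leaf label was not checked against marker genes. Positions are on the assembly used by the authors, whose name is not given in the sources used here.

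The same limits applied to the other patterns of presence and absence found few genes, except for the reverse one. By these limits 2 models were expressed only in diploid, 5 only in autotetraploid, 1 in diploid and monoploid but not autotetraploid, and 0 in autotetraploid and monoploid but not diploid. The reverse pattern, with at least 2 TPM in all 5 diploid and autotetraploid libraries and less than 0.5 TPM in all 3 monoploid libraries, held 60 models. At all 3 ploidy levels, 19672 models reached 2 TPM in every library.

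Most of the 84 members had traces of signal after genome doubling. In diploid 1 and diploid 2, 33 and 41 members had a value above 0, and in autotetraploid 1, 2 and 3 this was so for 41, 43 and 37 members, against all 84 in each monoploid library. Summed over the members, the level was 6.30 and 8.03 TPM in the diploid libraries and 6.24, 6.44 and 6.67 TPM in the autotetraploid libraries, against 1233, 1201 and 1153 TPM in monoploid 1, 2 and 3. The 5 low sums lay close to each other, and neither ploidy level stood apart.

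A subset of 27 members, 32.1%, was listed at 0 in all 5 diploid and autotetraploid libraries, and 38 stayed below 0.1 TPM in all 5. At the other end, 17 members had a value above 0 in each of the 5 libraries, and 30 reached 0.25 TPM or more in at least 1. The 27 members at 0 had a median monoploid level of 8.62 TPM and a median span of 907 bp, against 5.42 TPM and 1529 bp for the other 57. Members at 0 throughout thus had the higher median level, though they included BRA07G005045, which had the lowest monoploid median of all members at 2.22 TPM. The plot of all members by library shows the whole set.

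**Figure D1:**
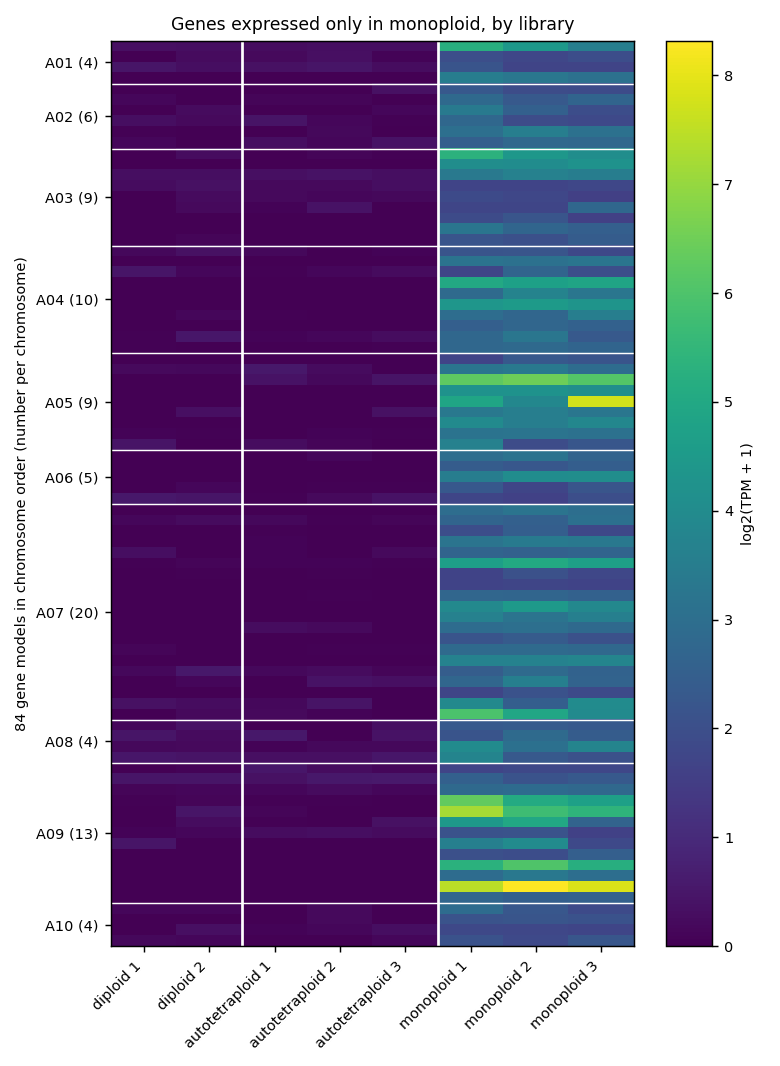
Levels of the 84 members as log2(TPM + 1), colour scale, with 1 row per gene model in chromosome order and 1 column per library; white lines part the ploidy levels and the chromosomes. The diploid and autotetraploid columns stay dark over their whole length, below 0.5 TPM by the rule, and the monoploid columns range from 2.01 to 318 TPM.

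Most members were weakly expressed genes in the monoploid. The median of their monoploid levels was 5.82 TPM, against 12.7 TPM over the 20843 models that were on in monoploid. Of the members, 50 (59.5%) had a median of at least 5 TPM, 24 (28.6%) of at least 10 TPM and 9 (10.7%) of at least 25 TPM, against 83.0%, 59.0% and 28.7% of the models that were on. The medians of single members spanned 2.22 to 228 TPM.

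The member with the highest monoploid level was BRA09G0036870 (A09:67815272-67816178). It gave no signal in any of the 5 diploid and autotetraploid libraries and had 174, 318 and 228 TPM in the monoploid libraries, a mean of 240.04 ± 72.8 TPM (SD, n = 3). A further A09 member, BRA09G0036686 (A09:66932722-66934134), was also at 0 in the 5 diploid and autotetraploid libraries and had 38.8, 64.5 and 35.9 TPM in the monoploid. Both lie within 1 Mb of each other, and both were highest in monoploid 2.

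On A05, BRA05G0042868 (A05:2869960-2871488) had 0 and 0 TPM in the diploid libraries and 0.326, 0.128 and 0.350 TPM in the autotetraploid libraries, against 75.5, 87.4 and 67.0 TPM in the monoploid libraries. BRA05G0042948 (A05:3240323-3240511), the shortest member at 189 bp, was at 0 in all 5 diploid and autotetraploid libraries, against 18.0, 17.9 and 16.2 TPM in the monoploid libraries. These members were steady among the monoploid libraries, with a highest value 1.30 and 1.11 times the lowest.

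On A04, BRA04G002114 (A04:23849092-23856015) was at 0 in the 5 diploid and autotetraploid libraries, against 31.6, 25.8 and 27.9 TPM in the monoploid libraries. BRA04G002183 (A04:24245432-24246220) was likewise at 0 in those 5 libraries, against 19.5, 22.3 and 18.7 TPM in the monoploid libraries. Neither A04 gene gave a signal in any of the 5 libraries, while their monoploid coverage was 98.6 reads per base or more.

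BRA03G0024754 (A03:2693483-2694936) had 0 and 0.202 TPM in the diploid libraries and 0, 0.0730 and 0.0346 TPM in the autotetraploid libraries, against 39.9, 20.0 and 16.0 TPM in the monoploid libraries. The other genes among the 10 with the highest monoploid minimum are an adjacent pair on A09 and a member of a run on A07, described below with their neighbours. In all 10, the lowest monoploid value was at least 16.0 TPM and the highest diploid or autotetraploid value was at most 0.399 TPM.

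**Figure D2:**
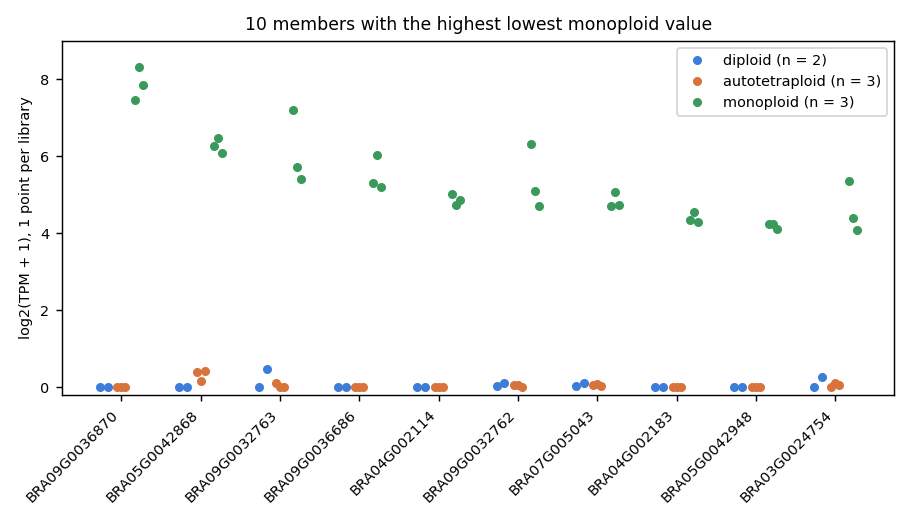
Levels of the 10 members with the highest minimum over the monoploid libraries, as log2(TPM + 1), with 1 point per library for diploid (n = 2), autotetraploid (n = 3) and monoploid (n = 3). The diploid and autotetraploid points lie at or near 0 for every gene, and the monoploid points of BRA09G0032763, BRA09G0032762 and BRA03G0024754 are spread more widely than those of the others.

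The spread among the monoploid libraries was wider in the members than in other expressed models, as a description with no test. The highest monoploid value was 1.43 times the lowest in the median member, against 1.31 times in the median model that was on. In 19 members (22.6%) the ratio was above 2, against 1413 (6.78%) of the models that were on. Levels differ between these sets, with lower levels among the members, and the part of this in the spread was not tested.

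Among the members with a ratio above 2, the highest and lowest values were unevenly shared between the libraries. Of the 19 members, 11 were highest in monoploid 1, 5 in monoploid 2 and 3 in monoploid 3, and 13 were lowest in monoploid 3. Over all 84 members, 28 were highest in monoploid 1, 40 in monoploid 2 and 16 in monoploid 3, that is 33.3%, 47.6% and 19.0%. The same shares over the models that were on were 28.1%, 55.7% and 16.2%, so most of that order over the 84 was general. Shares over all models with a ratio above 2 were not taken, so the counts of the 19 are not read as particular to members.

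The widest ratio belonged to BRA05G0043292 (A05:5241860-5244393), which was at 0 in the 5 diploid and autotetraploid libraries and had 28.5, 13.5 and 215 TPM in the monoploid libraries, a ratio of 16.0. Monoploid 3 alone carried its high value. The next model on the chromosome, BRA05G0043293, is no member, and it showed the same order of libraries: it was at 0 in the diploid and autotetraploid libraries and had 1.52, 1.32 and 10.8 TPM in the monoploid libraries. The members with the next widest ratios, 5.95 and 5.87, had their low value in monoploid 3. BRA09G0034738 (A09:56272840-56273609) had 0.392 and 0 TPM in the diploid libraries and 0 TPM in the autotetraploid libraries, against 10.9, 15.2 and 2.56 TPM in the monoploid libraries. BRA09G0034217 (A09:52157379-52159353) had 0 and 0.210 TPM in the diploid and 0.0362, 0 and 0.288 TPM in the autotetraploid, against 20.8, 30.9 and 5.27 TPM in the monoploid.

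Other members hardly differed between the monoploid libraries. BRA10G0013173 (A10:21542922-21545334) had 2.48, 2.40 and 2.37 TPM there, BRA07G005781 (A07:25411209-25418713) had 6.36, 6.36 and 6.05 TPM, and BRA07G005045 (A07:21169113-21170271) had 2.17, 2.30 and 2.22 TPM. Their ratios were 1.05, 1.05 and 1.06.

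Models close to the limits show how the choice was made. Just inside the lower limit, BRA03G0027338 and BRA03G0027310 each had a monoploid minimum of 2.01 TPM, and just outside it, BRA09G0032368 and BRA04G003453 had 2.00 and 1.98 TPM. Just inside the upper limit, BRA09G0031503 and BRA06G0037716 reached 0.466 and 0.459 TPM in a diploid or autotetraploid library, and just outside it, BRA06G0042054 and BRA09G0036758 reached 0.502 and 0.503 TPM. The last of these had 11.5, 14.6 and 12.4 TPM in the monoploid libraries and lies between members on A09. The limits thus part genes with nearly the same values.

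The members were spread over all 10 chromosomes but not evenly. A07 carried 20 members, 23.8% of the set, against 9.52% of the models that were on in monoploid. As a share of the models that were on, members made up 1.01% on A07, 0.725% on A04, 0.461% on A05 and 0.428% on A09, and 0.193% to 0.313% on each of the other 6 chromosomes. Of the 60 models with the reverse pattern, 13 were on A07 and 12 on A09. On A07, 9 of the 13 lay in a single stretch of 1.09 Mb.

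**Figure D3:**
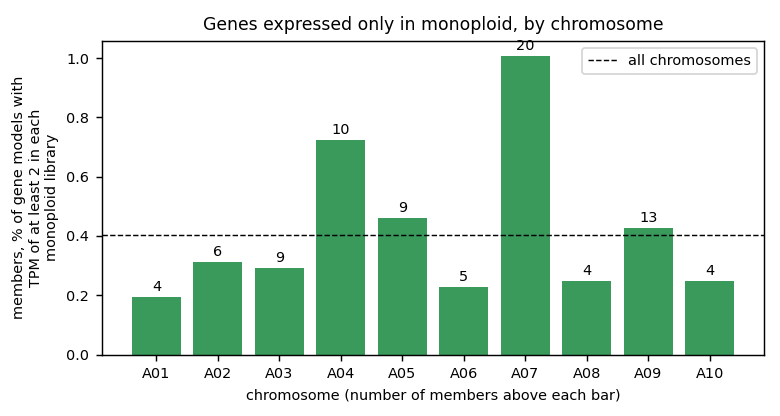
Members as a percentage of the gene models with at least 2 TPM in each monoploid library, by chromosome; the number of members stands above each bar and the dashed line marks the 0.403% over all chromosomes. A07 and A04 stand above the line, at 1.01% and 0.725%, with A05 and A09 slightly above it.

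Many members lay in a few stretches of chromosome. When successive members no more than 1 Mb apart were joined and stretches with at least 3 members were kept, a definition chosen after the positions were seen, 8 regions with 37 members (44.0%) resulted. The regions covered 7.74 Mb and held 743 (3.56%) of the models that were on in monoploid. Within them 4.98% of those models were members, and outside them 0.234%. Joining members by closeness raises the share inside by construction, so these values describe the layout and are no test of it.

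Of the 27 members at 0 after genome doubling, 18 (66.7%) lay inside these regions, against 19 of the other 57 (33.3%). The zeros are among the values that chose the members, and members of a region are neighbours. This split is thus a description and was not tested. The regions were not silent stretches. Of the 1517 gene models in them, between 16 and 199 per region had at least 2 TPM in every one of the 8 libraries, and the members stood among these.

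In the A09 region (A09:66184682-68088998) every member was at 0 in all 5 diploid and autotetraploid libraries. Beside BRA09G0036870 and BRA09G0036686 it held BRA09G0036526 with 3.12, 2.93 and 4.75 TPM in the monoploid libraries, BRA09G0036788 with 6.65, 9.17 and 7.01 TPM and BRA09G0036942 with 5.69, 4.75 and 4.95 TPM. Among its 417 gene models, 199 were on in all 8 libraries. The 5 members thus lay apart from each other in a stretch with many expressed genes.

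The A04 region (A04:23849092-25365895) held 6 members among 249 models, of which 92 were on in all 8 libraries. In the most crowded window of 1 Mb on A04, from 24 to 25 Mb, BRA04G002150 was at 0 in the 5 diploid and autotetraploid libraries, against 6.35, 12.3 and 8.62 TPM in the monoploid. BRA04G002243 (A04:24692582-24705501), the longest member at 12920 bp, had 0 and 0.107 TPM in the diploid and 0.0328, 0 and 0 TPM in the autotetraploid, against 6.83, 5.72 and 10.8 TPM in the monoploid. The third member of the window is BRA04G002183, and 4 of the 6 members of the region were at 0 in all 5 libraries.

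The A05 region (A05:2698802-3240511) held 4 members among 117 models. BRA05G0042832 was at 0 in the diploid and autotetraploid libraries, against 2.21, 3.87 and 3.47 TPM in the monoploid. BRA05G0042847 kept more signal, with 0.145 and 0.143 TPM in the diploid and 0.439, 0.196 and 0 TPM in the autotetraploid, against 8.41, 9.24 and 6.62 TPM in the monoploid. With BRA05G0042868 and BRA05G0042948 the region thus joined members with and without traces.

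The A03 region (A03:15514478-15643756) was short, at 0.129 Mb, and its 3 members were weak. BRA03G0027310 had 0 and 0.175 TPM in the diploid and 0.149, 0.111 and 0.138 TPM in the autotetraploid, against 2.64, 2.45 and 2.01 TPM in the monoploid. BRA03G0027330 had 0 and 0.165 TPM in the diploid and 0.0571, 0.314 and 0 TPM in the autotetraploid, against 2.36, 2.35 and 5.85 TPM in the monoploid. BRA03G0027338 was at 0 in these 5 libraries, against 2.70, 3.59 and 2.01 TPM in the monoploid. All 3 sit near the lower limit, so a slightly higher limit would remove this region.

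The other 4 regions were on A07. Between 32 and 33 Mb, BRA07G007178 was at 0 in the diploid and autotetraploid libraries, against 2.31, 3.26 and 2.66 TPM in the monoploid. BRA07G007152 had 0 and 0.103 TPM in the diploid and 0, 0.326 and 0.260 TPM in the autotetraploid, against 5.76, 10.9 and 5.33 TPM in the monoploid, and BRA07G007190 had 0.301 and 0.221 TPM in the diploid and 0.126, 0.342 and 0 TPM in the autotetraploid, against 14.0, 4.65 and 15.3 TPM in the monoploid. These neighbours were not alike among the monoploid libraries: monoploid 2 was the highest for BRA07G007152 and the lowest for BRA07G007190.

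The densest group of members was on A07 between 21 and 22 Mb, where 7 members lay in 1 Mb. There, 6 members followed each other with no other model between them. BRA07G005040 (A07:21114812-21115759) had 0 and 0 TPM in the diploid and 0.0271, 0 and 0 TPM in the autotetraploid, against 2.95, 4.65 and 2.52 TPM in the monoploid. BRA07G005041 (A07:21143281-21143850) had 0 and 0 TPM in the diploid and 0.0589, 0.0146 and 0 TPM in the autotetraploid, against 8.28, 9.40 and 9.02 TPM in the monoploid. BRA07G005042 (A07:21158661-21160651) had 0.252 and 0 TPM in the diploid and 0.0479, 0 and 0.157 TPM in the autotetraploid, against 5.40, 5.02 and 5.44 TPM in the monoploid. The run began with weak to moderate genes that were almost silent after doubling.

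BRA07G005043 (A07:21165201-21166511) was the strongest of the run, with 0.0275 and 0.0837 TPM in the diploid and 0.0516, 0.0591 and 0.0328 TPM in the autotetraploid, against 25.1, 32.5 and 25.5 TPM in the monoploid. BRA07G005044 (A07:21166939-21168276) had 0 and 0.0306 TPM in the diploid and 0.0192, 0.0412 and 0 TPM in the autotetraploid, against 2.18, 3.17 and 2.38 TPM in the monoploid, and BRA07G005045 was at 0 in all 5 of those libraries. The model after them, BRA07G005046 (A07:21170587-21172441), missed the set through 1 library. It had 5.29 and 0.156 TPM in the diploid and 0.270, 0.480 and 0.218 TPM in the autotetraploid, against 20.4, 25.3 and 20.2 TPM in the monoploid, so that diploid 1 alone lay above the limit.

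The stretch before this run held models with matching lengths and the opposite pattern, a feature that was noticed in the data and is not tested. For each of the 6 members and for BRA07G005046, a model on the same strand and within 1% of the span lay 76.5 to 88.2 kb earlier, in the same order along the chromosome. The spans were equal in 4 of the 7 pairs: 948 bp for BRA07G005040 and BRA07G005025, 1311 bp for BRA07G005043 and BRA07G005029, 1338 bp for BRA07G005044 and BRA07G005030, and 1855 bp for BRA07G005046 and BRA07G005032. In the remaining pairs the spans were 570 and 567 bp, 1991 and 1985 bp, and 1159 and 1155 bp.

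Of these 7 earlier models, 6 had the reverse pattern by the same limits. BRA07G005029 (A07:21077034-21078344), which pairs with BRA07G005043, had 17.8 and 21.4 TPM in the diploid and 19.0, 17.7 and 13.2 TPM in the autotetraploid, against 0, 0 and 0.0215 TPM in the monoploid. BRA07G005032 (A07:21082537-21084391), which pairs with BRA07G005046, had 18.4 and 18.8 TPM in the diploid and 13.8, 15.4 and 15.9 TPM in the autotetraploid, against 0 TPM in the monoploid libraries. BRA07G005025 (A07:21038353-21039300), which pairs with BRA07G005040, had 4.21 and 3.24 TPM in the diploid and 3.83, 3.84 and 3.52 TPM in the autotetraploid, against 0 TPM in the monoploid libraries. In each of these pairs the diploid and autotetraploid libraries had the earlier model on and the monoploid libraries the later one.

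BRA07G005030 (A07:21078767-21080104), the partner of BRA07G005044, had 2.28 and 3.22 TPM in the diploid and 3.81, 3.28 and 3.53 TPM in the autotetraploid, against 0.0342, 0.0409 and 0 TPM in the monoploid. BRA07G005027 (A07:21061951-21062517), the partner of BRA07G005041, had 4.45 and 6.20 TPM in the diploid and 3.85, 2.53 and 4.38 TPM in the autotetraploid, against 0.192, 0.308 and 0.201 TPM in the monoploid. BRA07G005028 (A07:21074070-21076054), the partner of BRA07G005042, had 4.56 and 4.0 TPM in the diploid and 2.74, 2.46 and 4.17 TPM in the autotetraploid, against 0.180, 0 and 0.0618 TPM in the monoploid. The exception by the limits was BRA07G005031, the partner of BRA07G005045, with 0.282 and 0.976 TPM in the diploid and 1.11, 0.802 and 0.686 TPM in the autotetraploid, against 0, 0.0850 and 0.0714 TPM in the monoploid. It too was higher in each diploid and autotetraploid library than in any monoploid library, though at a low level.

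Added together, the models of a pair differed less between ploidy levels than either did alone. As the models of a pair had opposite patterns, this was largely fixed in advance and is given as a description. For BRA07G005040 and its partner the sum was 4.21 and 3.24 TPM in the diploid and 3.86, 3.84 and 3.52 TPM in the autotetraploid, against 2.95, 4.65 and 2.52 TPM in the monoploid. For BRA07G005043 and its partner it was 17.8 and 21.5 TPM in the diploid and 19.0, 17.7 and 13.2 TPM in the autotetraploid, against 25.1, 32.5 and 25.6 TPM in the monoploid. The ratio of mean sums was 0.275 to 1.11 for diploid over monoploid and 0.380 to 1.37 for autotetraploid over monoploid across the 7 pairs. In 3 pairs, those of BRA07G005040, BRA07G005044 and BRA07G005046, the sums of the monoploid libraries overlapped the range of the other 5. In the other 4 pairs every monoploid sum was above every diploid and autotetraploid sum.

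**Figure D4:**
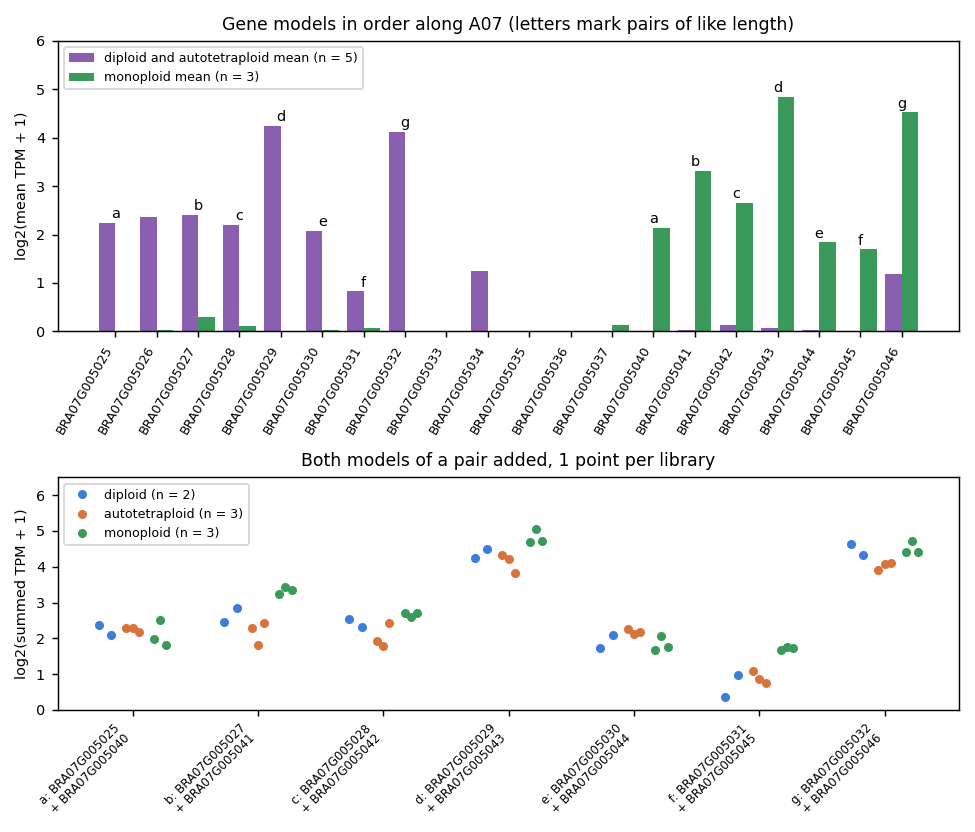
Upper panel: mean level as log2(mean TPM + 1) of the 20 gene models in order along A07 from BRA07G005025 to BRA07G005046, for the 5 diploid and autotetraploid libraries together and for the 3 monoploid libraries; letters mark the 7 pairs of like length. Lower panel: log2(summed TPM + 1) of both models of each pair, with 1 point per library; the diploid and autotetraploid bars fill the left of the upper panel and the monoploid bars the right, and the sums overlap between ploidy levels in pairs a, e and g.

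Like-length partners were not a general feature of the members. With a span equal to the base, on the same strand and within 200 kb, 6 of the 84 members (7.14%) had a partner, against 289 of the 20843 models that were on in monoploid (1.39%). With spans within 1%, the count was 22 (26.2%), against 4884 (23.4%), so the looser match told little. In 3 of the 6 exact matches the partner had the reverse pattern, and all 3 were on A07. The sequences of these models were not used here, and how reads were assigned between near-identical copies was not tested.

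An adjacent pair of members on A09 also had equal spans of 1491 bp. BRA09G0032762 (A09:12492471-12493961) had 0.0242 and 0.0852 TPM in the diploid and 0.0345, 0.0369 and 0 TPM in the autotetraploid, against 78.4, 33.1 and 25.3 TPM in the monoploid. BRA09G0032763 (A09:12504809-12506299) had 0 and 0.399 TPM in the diploid and 0.0869, 0 and 0 TPM in the autotetraploid, against 146, 51.9 and 41.3 TPM in the monoploid. Both members had the same order among the monoploid libraries, with monoploid 1 the highest. The third model in the row, BRA09G0032764 (A09:12509756-12511246), has the same span and stayed near 0, with 0 TPM in the diploid and autotetraploid libraries and 0.0178, 0.0185 and 0 TPM in the monoploid libraries. The models that flank the members, BRA09G0032761 on one side and BRA09G0032764 on the other, were thus not expressed at any ploidy level. Where copies are near-identical, the split of reads between them is uncertain.

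The run on A07 and the pair on A09 together account for the 8 members (9.52%) that had another member as the next model. The remaining 76 had none.

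**Figure D5:**
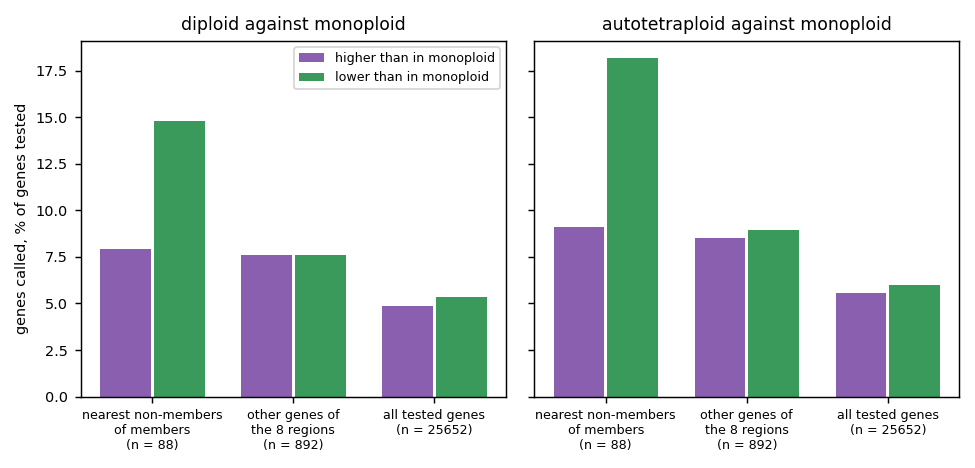
Genes called higher or lower than in monoploid as a percentage of the genes tested, for the nearest non-member models of members (n = 88), the other genes of the 8 regions (n = 892) and all tested genes (n = 25652), diploid against monoploid on the left and autotetraploid against monoploid on the right. The other genes of the regions include the nearest non-members that lie inside them. Calls follow the limits on adjusted p and fold change given in the text. The bars for lower calls among the nearest non-members reach 14.8% and 18.2%, against 5.36% and 6.01% over all tested genes.

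The nearest non-member on each side of a member was examined next. The rule had passed over these genes by their own levels, so some of them missed the set narrowly. BRA07G005046 missed it through diploid 1, and BRA05G0042848 and BRA07G005310 missed it through monoploid values below 2 TPM. There were 156 such models. Of these, 63 had at least 2 TPM in all 8 libraries and 25 were at 0 in all 8, and a further 17 were at 0 in all 5 diploid and autotetraploid libraries and above 0 in at least 1 monoploid library. Of the members, 53 had at least 1 such neighbour with 2 TPM or more in all 5 diploid and autotetraploid libraries, and 15 had both. Of all 46479 gene models, 19672 outside the A06 block had at least 2 TPM in all 8 libraries, a share close to that of the flanking models. How often other genes have such a neighbour was not counted, so these numbers only describe the members.

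Genes were tested with limma on log2(TPM + 1), with Benjamini-Hochberg adjustment over the 25652 models that had 1 TPM in at least 2 libraries; all 84 members passed this filter through their monoploid values. A gene was called when its adjusted p did not exceed 0.05 and its log2 fold change was 1 or more in size. By that rule all 84 members were called lower in diploid than in monoploid, and all 84 lower in autotetraploid than in monoploid, beside 5.36% and 6.01% of all tested genes. The choice of members used both contrasts, so nothing is read from these counts.

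Among the 88 flanking models that passed the filter, 13 (14.8%) were called lower in diploid than in monoploid, against 5.36% of all tested genes, and 7 (7.95%) were called higher, against 4.87%. In autotetraploid against monoploid, 16 (18.2%) were called lower, against 6.01% of all, and 8 (9.09%) higher, against 5.56%. The monoploid libraries are shared by these comparisons, which are thus not independent. The diploid counts depended on diploid 1: without that library, 6 of the 88 (6.82%) were called lower and 6 higher, against 3.09% and 3.14% of all tested genes, with the lone diploid library assumed to vary like the other groups. In autotetraploid the counts stayed between 14 and 16 lower whichever library was left out.

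Flanking models called lower lay both inside and outside the regions. In the regions, 7 of 25 tested flanking models were lower in diploid and 9 of 25 in autotetraploid, and outside them 6 of 63 and 7 of 63, a difference that was not tested. BRA07G005318 (A07:22869853-22871781), next to the member BRA07G005317, had 0.876 and 1.26 TPM in the diploid and 1.20, 0.868 and 0.859 TPM in the autotetraploid, against 9.88, 9.38 and 9.84 TPM in the monoploid. It fell by 2.38 ± 0.167 (log2, SE) in diploid and by 2.44 ± 0.150 in autotetraploid (limma, adjusted p = 3.57e-05 and 1.01e-05), with all 5 libraries below all 3 monoploid libraries. Its member neighbour was at 0 in these 5 libraries, against 11.7, 8.26 and 10.9 TPM in the monoploid libraries.

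BRA07G005046, at the end of the A07 run, fell by 3.08 ± 0.546 in diploid and by 4.12 ± 0.488 in autotetraploid (log2, SE; limma, adjusted p = 0.0045 and 0.000413). Its log2 difference in diploid was -4.30 without diploid 1 and -1.86 without diploid 2, and over the alternatives its adjusted p ran from 3.7e-05 to 0.0156. BRA07G005404 (A07:23395258-23395876), beside the member BRA07G005405, had 7.04 and 8.23 TPM in the diploid and 2.62, 4.99 and 11.8 TPM in the autotetraploid, against 28.5, 25.4 and 33.9 TPM in the monoploid. It fell by 1.80 ± 0.419 in diploid and by 2.20 ± 0.375 in autotetraploid (log2, SE; limma, adjusted p = 0.0126 and 0.00234), and over the alternatives the adjusted p for diploid ran from 0.00144 to 0.086, the last without diploid 1. Its level after doubling remained well above that of any member.

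Outside the regions, BRA09G0031158 (A09:1919681-1922594), next to the member BRA09G0031157, had 7.06 and 13.7 TPM in the diploid and 9.71, 9.89 and 12.5 TPM in the autotetraploid, against 40.9, 32.0 and 37.4 TPM in the monoploid. It fell by 1.79 ± 0.242 in diploid and by 1.69 ± 0.217 in autotetraploid (log2, SE; limma, adjusted p = 0.0014 and 0.000597). BRA05G0043293, the neighbour of the variable member on A05, was listed at 0 in all 5 diploid and autotetraploid libraries, so no fold is given (limma, adjusted p = 0.0277 and 0.0149). For diploid against monoploid it lost its call under 6 of 16 alternative settings, with adjusted p from 0.00521 to 0.123.

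The other genes of the 8 regions, which include the flanking models inside them, showed a smaller excess when pooled, in both directions. Shares varied between regions, though some held few tested genes. In diploid against monoploid, the share called higher ran from 0% of 19 genes (A03 region) to 20.9% of 91 (region with the A07 run). The latter supplied 19 of the 68 higher calls counted below. The share called lower ran from 3.94% of 127 genes in an A07 region to 15.8%, 3 of 19, in the A03 region. Of 892 tested, 136 were called in diploid against monoploid and 156 in autotetraploid against monoploid, beside 10.2% and 11.6% of all tested genes. By direction, 68 (7.62%) were called higher and 68 (7.62%) lower in diploid than in monoploid, against 4.87% and 5.36% of all tested genes. In autotetraploid against monoploid, 76 (8.52%) were higher and 80 (8.97%) lower, against 5.56% and 6.01%. Outside the regions and without the members, 4.79% and 4.96% were called in diploid, and 5.47% and 5.58% in autotetraploid. Without diploid 1, which leaves a lone diploid library, fewer genes were called for diploid both in the regions and over all tested genes.

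The region with the run on A07 (A07:20181003-21266285) had the largest share of genes that were higher after doubling among the 8. Of its 91 tested non-members, 19 (20.9%) were called higher and 10 (11.0%) lower in diploid than in monoploid, and 19 and 10 in autotetraploid. It also held 9 of the 11 models with the reverse pattern that lay in any of the regions. Members and genes of the reverse pattern thus stood side by side in this stretch.

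Between diploid and autotetraploid, the rule itself kept any member from being called. In autotetraploid against diploid, 0 of the 84 members were called by limma and 0 had an unadjusted p of 0.05 or less, beside 0.0273% of all tested genes called in either direction. The rule holds members below 0.5 TPM in both groups. On the log2(TPM + 1) scale none could thus reach the fold change needed for a call. The log2 differences of the members on that scale ran from -0.277 to 0.338. Of the 88 flanking models, 0 were called, with 5 at an unadjusted p of 0.05 or less, and of the 892 other genes of the regions 0 were called, with 39 at that level.

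Members were on the whole shorter than other expressed models, again as a description. Their median span was 1336 bp, against 1812 bp for the models that were on in monoploid, and 11 members (13.1%) spanned 500 bp or less, against 5.79%. As TPM is per length, a short model reaches a given TPM with fewer reads, so the traces in the diploid and autotetraploid libraries are counted less finely in short members. The part of this in the shorter median span of the members at 0 was not tested.

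Of the members, 2 (2.38%) overlapped another model, in both cases on the other strand, against 0.437% of the models that were on in monoploid. BRA09G0034738 lies within BRA09G0034737, which was at 0 in all libraries except monoploid 3, where it had 0.0321 TPM. BRA09G0036686 lies within BRA09G0036685, which had 8.76 and 16.4 TPM in the diploid and 6.98, 6.77 and 9.25 TPM in the autotetraploid, against 31.2, 12.4 and 35.7 TPM in the monoploid. The host was thus expressed in all 8 libraries, and the member in the monoploid libraries alone. Among these, the member was highest in monoploid 2, where its host was lowest. Whether the quantification used strand is not stated for these tables, so reads from the member and its host may not be fully separated.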

How the data were processed

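Young leaves of 2 diploid, 3 autotetraploid and 3 monoploid libraries were compared. The authors used fastp for trimming, HISAT2 for alignment and StringTie for gene levels. The submitters' processing notes give fastp 0.21.0, HISAT2 2.2.1 and StringTie 1.3.5, while the methods name another HISAT2 version. The deposited TPM and FPKM values are per gene model and normalized for length and depth, and the deposited coverage is the mean read depth per base. Assembly, annotation and strand setting are not given in the sources used here. In the table of monoploid 1, 3 columns that name no sample here were left out. Aligned bases were taken as coverage over FPKM.

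Groups follow the labels. The members and all lists were chosen with earlier results of these data known. Genes named are the 10 members with the highest monoploid minimum, those at the limits, adjacent members, those with the widest and narrowest spread, the longest and shortest, those in the densest windows, members equal in span to a neighbour, and the 5 flanking non-members with the largest falls. Region members and partner models were a later addition, chosen with their values in view.

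The values are not counts, so log2(TPM + 1) was fitted in limma 3.58.1 (R 4.3.3) with 1 linear model over 8 libraries and eBayes with trend. On simulated data with 200 changed genes among 25652, 86% were recovered for diploid against monoploid and 88.5% for autotetraploid against monoploid. The changed genes were drawn from those above a set mean level and moved by more than the limit for a call, under normal noise. These rates thus do not apply to weaker genes or smaller changes. Tables were handled in pandas 2.3.3 and drawn in matplotlib 3.10.9. Alternatives were other limits, units, scalings, filters, a pseudocount of 0.1, a stricter p, the replicate block and each library left out. P-values set the difference between group means against the spread between these libraries. They do not cover the spread between independent doublings, as the ploidy levels share a single line of descent.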

Additional observations from a re-analysis of the deposited data

How the results depend on the processing

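The number of members depended on the limits: 170 with at least 1 TPM in the monoploid, 41 with at least 5 TPM, 54 with less than 0.25 TPM in the other libraries and 151 with less than 1 TPM, against 84. FPKM gave 82, of which 70 were shared, and median-ratio rescaling gave 98, which included the 84. Leaving out 1 library gave 85 to 112 members, 112 without diploid replicate 2. It gave 28 to 30 members at 0 in the remaining diploid and autotetraploid libraries, and a median spread of 1.15 to 1.28. As each library is a condition of the rule, leaving 1 out can only keep or raise these counts. It can likewise only keep or lower the ratio of a given member. Members with a neighbouring member numbered 4 within 10 kb, 18 with the limit at 1 TPM and 5 with the limit at 5 TPM, against 8. Members in regions numbered 28, 47 and 31 with gaps of 0.5 Mb, of 2 Mb, and with at least 4 members.

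With a mean TPM of at least 5, fewer genes were tested and fewer called. In diploid against monoploid 1723 were called, against 2625, and in autotetraploid against monoploid 1937, against 2966. Between autotetraploid and diploid 2 were called, against 7. Flanking genes called lower numbered 5 (9.43%) and 7 (13.2%) of 53 tested, beside 4.26% and 4.87% of all tested genes. Other genes of the regions called in autotetraploid numbered 102. Taking the 2 nearest non-members on each side gave 20 and 25 lower. That set is larger and its number tested was not counted, so these counts give no share. Between autotetraploid and diploid, eBayes without trend called 11 genes and a fit of only these groups 3; the cause was not tested. Leaving out each library gave 1589 (without diploid replicate 1) to 2887 calls in diploid, 2747 to 3265 in autotetraploid, and 6 to 65 between them, 65 without diploid replicate 1 and 16 without diploid replicate 2. Flanking genes called lower ranged from 6 to 14 in diploid and 14 to 16 in autotetraploid, other genes of the regions from 86 to 152 and from 143 to 166. Members called between autotetraploid and diploid stayed at 0 under each alternative. Where 1 was added to TPM, the rule fixed this count, so it is no sign of stability.

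Relative to all genes, whose median log2 difference was 0.247 in diploid and 0.195 in autotetraploid against monoploid, median-ratio rescaling moved higher and lower calls to 654 and 1863 in diploid and 945 and 1964 in autotetraploid, against 1249 and 1376, and 1425 and 1541. Quantile normalization gave 831 and 1591 in diploid. Flanking genes then had 4 higher and 15 lower calls in diploid and 5 and 17 in autotetraploid with median-ratio rescaling, beside 7.26% and 7.66% of all tested genes lower.

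Deviations of same-numbered libraries from their group means had correlations of -0.224 to 0.217 across genes. The pairs of autotetraploid and monoploid were all positive (0.217, 0.181 and 0.0823), and each negative value involved a diploid library. With 2 diploid libraries, their deviations are opposite by construction, so the signs of diploid pairs decide little. Whether the numbers mark a shared batch was not settled. With the replicate block, 2358, 2981 and 7 genes were called, 11 and 16 flanking genes were lower, and 126 and 159 other genes of the regions were called. Of 174 alternatives to the counts and spreads, 152 stayed within 1.5 times the count or 1 SD of the value and 22 did not. Some of the 152 were fixed or held to 1 direction by the rule, so the tally is no measure of stability. With 2 or 3 libraries per group and no read counts, small differences among members near 0 were not detectable.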
